A study of Mus musculus with 2 samples.

Results

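CTCF sites inside the introns of very long genes were examined in the kidneys of B6NCrl mice on the day of birth, age 0 days. Chromatin was immunoprecipitated with an antibody to CTCF and sequenced in 2 libraries, which the labels number as replicates 1 and 2 and assign to the same biosample and donor. No treatment, genotype or other group enters, so differences between the libraries may be technical and no comparison between conditions can be made. Kidney tissue mixes many cell types, the peak lists cannot say in which cells a site was bound, and the tissue label could not be checked against marker expression because the lists hold only peaks. The sites come from the authors' optimal list, which was thresholded for reproducibility. It holds 65482 peaks, of which 63856 lie on chromosomes 1 to 19. Which peak sets were compared for that threshold is not given in the sources at hand. A peak was taken when its summit lay in a protein-coding gene longer than 200 kb, in no exon of a protein-coding gene, and more than 1 kb from every protein-coding transcription start site (TSS) and gene 3′ end. The rule used position only and found 7580 peaks, 11.9% of those on chromosomes 1 to 19. They are called long-gene peaks here. Another 16176 peaks passed the same rule in genes of at most 200 kb, and 25531 peaks lay between genes at the same distances.

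CTCF is a zinc-finger protein that binds a long, non-palindromic motif and stops cohesin as it extrudes loops of chromatin. The stop depends on direction, and loops tend to form between sites whose motifs point towards each other. Inside a gene, a bound site can meet both extruding cohesin and the transcribing polymerase, and CTCF in gene bodies has been tied to polymerase pausing and to the choice of exons. In rodents, mobile SINE elements of the B2 family have carried copies of the CTCF motif to many positions in the genome. Very long genes are rich in introns, tend to be poor in G and C, and include many neuronal adhesion genes as well as developmental transcription factors.

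The sequence of a site sets the direction that the results below turn on, so the 19-base matches of 5 of the highest-signal long-gene peaks come first, in capitals with 5 flanking bases on each side, read along the strand of the motif on the GRCm38 (mm10) genome. A match is the best-scoring stretch within 100 bp of a summit, under a matrix learned from the other peaks of the list, that passed the score reached at 1 in 10000 positions of control windows.
Lsamp, chr16:42165119-42165137, reverse strand: atctcTGTCCACCAGGTGGCAACAgtgag
Gse1, chr8:120319693-120319711, forward strand: cctccCTGCCACCAGAGGGCGCAGgagtg
Palld, chr8:61540008-61540026, forward strand: cccacTGTGCACCAGGGGGCACCAatgct
Dennd1a, chr2:37815861-37815879, forward strand: cattcTCACCACAAGGGGGCAGTCataag
Col23a1, chr11:51539874-51539892, reverse strand: gccggTGAGCACTAGGGGGCGCCCttgat
The match had a common form outside repeats and another within them. The commonest base at each position over the 3528 matches outside soft-masked sequence, and then over the 1434 matches within it, read as follows. Soft-masked sequence is what the reference genome gives in lower case as repetitive, and repeats here means that sequence. How it was marked is not given in the sources at hand.
Outside soft-masked sequence: TGGCCACCAGGGGGCACTA
Within soft-masked sequence: AGGCCAGAAGAGGGCATCA

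The peak with the highest signal of all long-gene peaks lay in the sixth intron of Lsamp, which encodes a neuronal cell adhesion molecule, at chr16:42164952-42165319, 21119 bp from the nearest TSS. Because the authors' signal values differ in scale between lists, signal is given as a percentile of the optimal list. This peak stood at percentile 99.9 in the list and, ranked among the same peaks by each library's own signal, at 99.9 in replicate 1 and 99.9 in replicate 2. The sequence around its summit, on the forward strand with the match in capitals, had 44.3% GC.
Lsamp, chr16:42165044-42165244: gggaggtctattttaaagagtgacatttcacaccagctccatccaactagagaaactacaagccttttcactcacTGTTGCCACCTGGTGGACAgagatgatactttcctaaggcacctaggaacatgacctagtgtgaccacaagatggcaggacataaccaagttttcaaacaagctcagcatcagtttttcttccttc
The peak in the second intron of Ksr2, a kinase-like scaffold of the Ras pathway, lay at percentile 99.8 (99.8 in replicate 1 and 99.8 in replicate 2), only 103 bp from an exon.
The other 8 of the 10 highest lay in Ctif, which encodes a translation initiation factor, in Gse1, a partner of a histone demethylase complex, in the actin-binding Palld, in the calcium channel gene Cacna1e, in the endosomal Dennd1a, in the collagen gene Col23a1, in the cytoskeletal linker Macf1, and between other genes under the entry Gm20388, 2703 bp from a TSS of Foxc2. Their percentiles ran from 99.7 to 99.9. In replicate 1 the lowest of the 10 was Ctif at 98.4, and in replicate 2 it was Col23a1 at 99.4. All 10 lay in the conservative list and outside soft-masked sequence, and 9 had a motif match, the exception being Macf1. At the other end were peaks in Nfia, a transcription factor of kidney and brain development, in Sorcs1, a sorting receptor, and in Itga9, an integrin, at percentiles of 0.0260 or less and none with a match. The libraries placed them differently: the Nfia peak stood at 0.692 in replicate 1 and 2.14 in replicate 2, and the Sorcs1 peak, which is in the conservative list, at 6.84 and 27.3. The Itga9 peak stood at 0.285 in replicate 1 and had no counterpart in the list of replicate 2.

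Nearly every very long gene carried CTCF in its introns. Of 953 protein-coding genes over 200 kb, 916 (96.1%) held at least 1 long-gene peak, and the median gene held 6 (interquartile range 3 to 11). A single peak was found in 54 genes, 10 or more in 280 genes, 20 or more in 49 and 30 or more in 9. With the limit at 100 kb in place of 200 kb, 93.7% of genes held a peak. The share in genes of at most 200 kb was not computed. Since 82 peaks lay in more than 1 long gene, counts summed over genes exceed 7580. The entry Gm20388 had 257 peaks and Fgfr2, a fibroblast growth factor receptor needed for kidney branching, had 101, but both entries are unusual. Gm20388 is a readthrough annotation of 4435 kb with 71 other protein-coding genes inside it. The entry of Fgfr2 spans 2961 kb and holds 29 others, while its principal transcript spans 102 kb. Together 318 peaks lay in these entries and in no other long gene. Gm37240, also a readthrough entry, held 29. In all, 1072 peaks (14.1%) lay only in genes whose principal transcript does not exceed 200 kb.

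Among the other genes, Camta1, a calmodulin-binding transcription activator, held most, with 50 peaks over 945 kb. Gse1 held 40, the axon guidance gene Nav2 39, the RNA-binding Rbms3 38, the cell polarity gene Fry 33, the guanine nucleotide exchange factor Kalrn 32, the nuclear receptor Rora 31 and Ksr2 29. In Camta1 the signal percentiles ran from 2.40 to 97.6 with a median of 40.4, 37 of the 50 had a motif match, and 42 were also in the conservative list. In Rbms3 no peak passed percentile 67.9 although 34 of 38 lay in the conservative list, and in Fry none passed 82.1. Per eligible intron, meaning intron sequence in which a summit would pass the rule, Gse1 was densest at 12.0 peaks per 100 kb, followed by Fry at 9.97, Zmiz1 at 9.53, Skap1 at 9.27 and Ksr2 at 8.35, among genes with 5 or more. Zmiz1 encodes a transcriptional coactivator and Skap1 an adaptor of T cell signalling. The GC content of their eligible sequence differed, at 54.1% in Gse1, 52.0% in Zmiz1, 48.2% in Ksr2, 44.1% in Fry and 43.5% in Skap1.

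**Figure D1:**
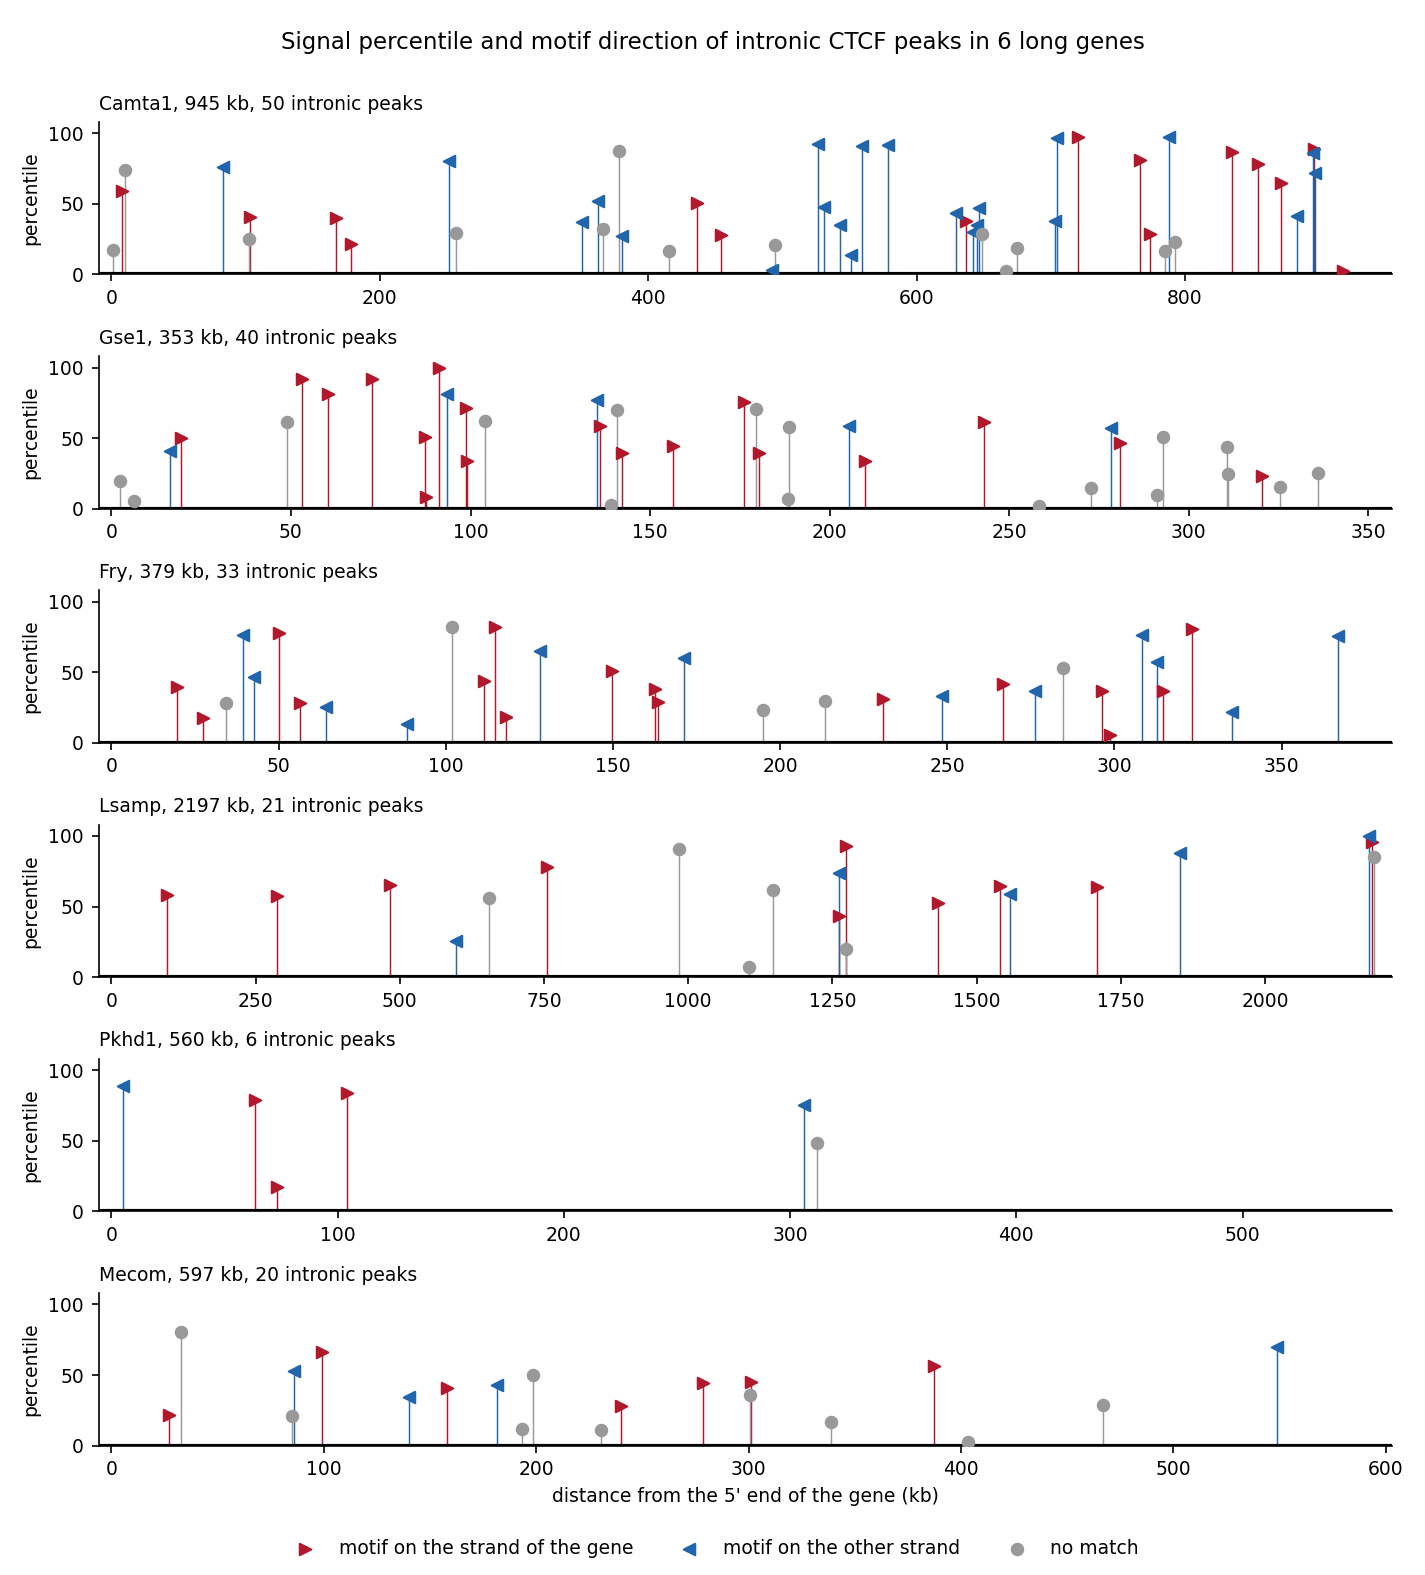
Each panel runs from the 5′ to the 3′ end of a gene (kb, own scale per gene) and shows each intronic CTCF peak at its signal percentile in the optimal list; triangles give the direction of the motif match relative to transcription and grey circles mark peaks with no match. The 40 peaks of Gse1 and 33 of Fry stood close together, while the 21 peaks of Lsamp and 6 of Pkhd1 were far apart.

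The longest genes after the entries Gm20388 and Fgfr2 held more peaks than the median gene but fewer per base. Ptprd, a receptor phosphatase of 2271 kb, held 18 peaks, Cntnap2, a neurexin-family adhesion gene of 2245 kb, held 18, and Lsamp, 2197 kb, held 21. Their densities were 0.805, 0.808 and 0.965 per 100 kb, against a median of 1.84 over the 953 genes (interquartile range 0.962 to 3.09), and their eligible sequence had 36.9%, 37.8% and 37.8% GC. In Lsamp, the gap between neighbouring peaks was 110 kb at the median and reached 329 kb. Its 21 peaks had a median percentile of 63.6, and 20 were in the conservative list. Of the 37 genes with none, the longest were Malrd1 (729 kb), a regulator of bile acid synthesis, the skin T cell gene Skint5 (522 kb), the carboxypeptidase gene Cpq (511 kb), Edil3 (502 kb), an integrin ligand, and Skint6 (482 kb). Their GC content lay between 35.9% in Edil3 and 38.9% in Cpq. No gene over 1000 kb was without a peak.

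The number of peaks in a gene followed its length only loosely. Over the 953 genes, Spearman's rho between the number of peaks and the eligible intron length was 0.302, and rho between density and that length was -0.281. Density was more closely related to the GC content of the eligible sequence, with rho of 0.743. These are descriptions across genes, which share the same 2 libraries and, where they overlap, the same peaks. Just above the 200 kb limit, Pcbp3 (200031 bp) held 6 peaks, Plcxd3 (200063 bp) none and Umad1 (200183 bp) 3, and just below it Clec16a (199540 bp) had 10 intronic peaks, Morc1 (199664 bp) 2 and Atp9b (199920 bp) 3.

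**Figure D2:**
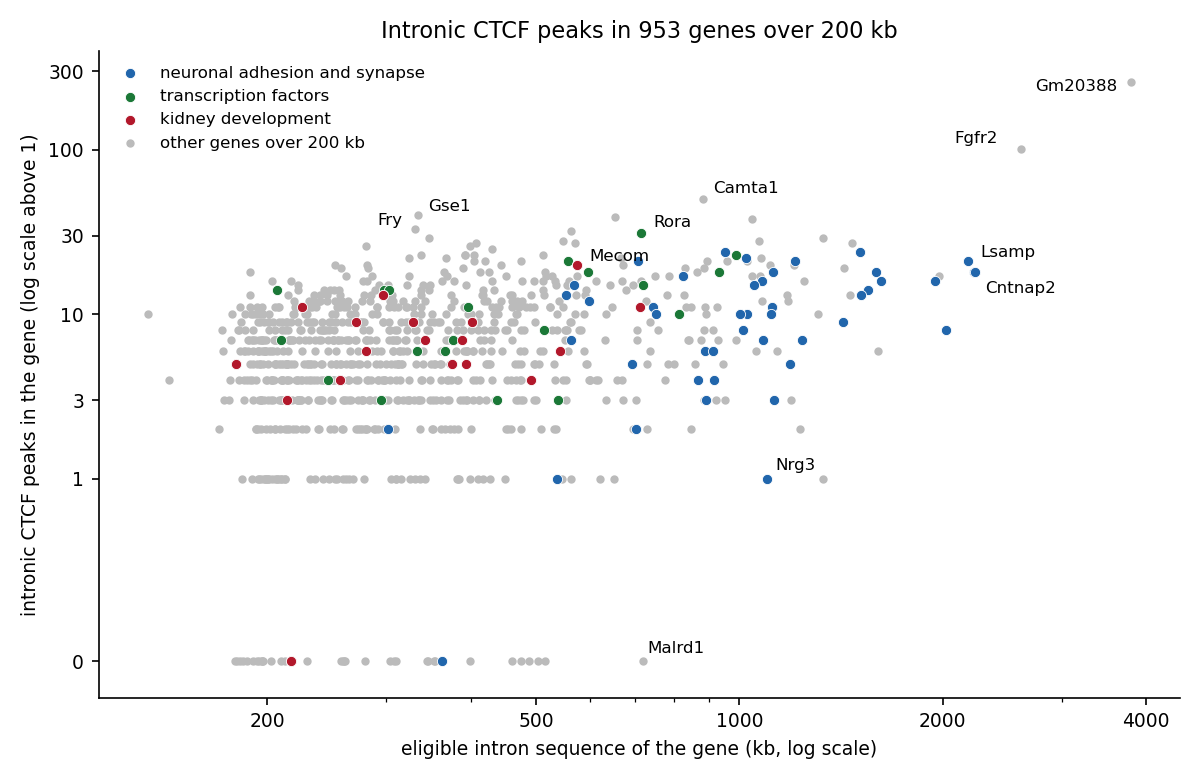
Each point is a gene over 200 kb, placed by its eligible intron sequence (kb, log scale) and its number of intronic CTCF peaks (log scale above 1); colours mark 3 gene lists, and a gene in both the kidney development and the transcription factor list has the colour of kidney development. Genes of the neuronal list lie to the right at low counts for their length, from 0 to 24 peaks, and Camta1 lies above the other genes at 50, below only the entries Gm20388 and Fgfr2.

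The long genes of 6 lists were described, chosen with earlier results of these data known. Of 18 long genes with roles in kidney development, 17 held a peak, with a median of 1.92 per 100 kb, close to the 1.84 of all 953 genes. Bicc1, an RNA-binding protein whose loss gives cystic kidneys, had 4.88 per 100 kb and Mecom, a zinc-finger transcription factor gene, 3.48. Gli3, a transcription factor of Hedgehog signalling, had 1.56 and Pkhd1, the gene of recessive polycystic kidney disease, 1.10. Trps1, a transcription factor gene of 236 kb, had none. The 6 peaks of Pkhd1 had a median percentile of 77.3, and 4 of them stood at 75.7 or above. From its 5′ end, the first stood at percentile 88.6 (88.1 in replicate 1, 87.7 in replicate 2), the second at 79.0 (77.98 and 78.5), the third at 17.1 (17.5 and 19.4) and the fourth at 84.1 (77.0 and 90.5). The fifth, at 75.7 (76.5 and 74.1), and the sixth, at 48.6 (52.2 and 29.6), lay in the middle of the gene, and all 6 were in the upper set of both libraries. Mecom, of similar length at 597 kb, held 20 peaks at a median percentile of 38.5. Its highest, at 80.4 (77.8 in replicate 1, 82.0 in replicate 2), had no motif match, and its lowest, at 2.38, had no counterpart in replicate 2. In Bicc1 the 11 peaks ran from percentile 7.69 (1.33 in replicate 1, 23.2 in replicate 2) to 74.2 (73.4 and 74.9). In Bicc1 the libraries were closer at the highest peak than at the lowest.

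Among 12 long genes of the renal tubule all held a peak, with a median of 1.66 per 100 kb. The sodium transport regulator Nedd4l had 4.57, the organic anion pump gene Abcc4 3.35, the bicarbonate cotransporter gene Slc4a4 3.25 and Esrrg, an orphan nuclear receptor gene, 3.02. Esrrg held 18 peaks with a median percentile of 23.2, ranging from 2.02 to 80.8. The 3 peaks of Cubn, the receptor for protein uptake in the proximal tubule, had a median of 80.1. Erbb4, a growth factor receptor gene of 1076 kb, had 6 peaks or 0.567 per 100 kb. The 7 podocyte and glomerulus genes had a median of 1.33, from 3.02 in Ptpro, a phosphatase of the podocyte surface, and 2.83 in Plce1, a phospholipase, to 0.893 in the slit diaphragm scaffold Magi2 and 0.240 in Thsd7a, with a single peak. The 28 transcription factor genes had a median of 2.16, and 18 lay above the median of all long genes. Tead1 was highest at 6.78, followed by Tcf4 at 4.70 and Prdm16 at 4.62. Sox6, at 0.557, had 3 peaks.

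The 45 long genes of neuronal adhesion and synapse had a median of 0.898 peaks per 100 kb, and 7 of the 45 lay above the median of all 953 genes. Tenm4 was highest at 2.97, and Nrg3, a growth factor gene of 1104 kb, had a single peak. Cntn6 had none. The 13 genes known in human for common fragile sites, where chromosomes break under replication stress, had a median of 0.893. Auts2 (2.62) and Wwox (2.34) were the 2 above the median of all long genes, and Fhit (0.374), Lrp1b (0.395) and Naaladl2 (0.0752) were lowest. The neuronal and fragile site genes were also longer and poorer in GC, with medians of 38.4% and 39.1% against 41.4% over all long genes. The part of GC content in these list medians was not tested. Some genes stand in more than 1 list.

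Per base, introns of very long genes held fewer CTCF peaks than introns of shorter genes. Long genes had 19.5 peaks per Mb of eligible intron (95% exact Poisson interval 19.1 to 19.9), and genes of at most 200 kb had 35.7 (35.2 to 36.3), a ratio of 0.546. Intervals here and below cover counting error only. Sequence between genes, under the same distance rule, had 18.6. The density was 14.7 per Mb in genes over 1000 kb, 15.5 from 500 to 1000 kb, 20.4 from 300 to 500 kb and 26.8 from 200 to 300 kb, and among shorter genes it was 30.7 from 100 to 200 kb, 35.4 from 50 to 100 kb and 41.6 up to 50 kb. No neighbouring intervals overlapped except those of the classes over 500 kb. Of the 1113 peaks in the class over 1000 kb, 257 lay in the entry Gm20388 and 101 in that of Fgfr2. These entries held 3793 and 2612 kb of its 75.6 Mb of eligible intron. The density of the class without them was not computed. GC content moved with length, from 39.9% of eligible sequence over 1000 kb to 44.2% up to 50 kb. Within classes of GC content of 10 kb tiles the long genes stayed lower in each of the 8 classes. In tiles under 36% GC they had 4.68 peaks per Mb against 10.1 in shorter genes, a ratio of 0.464. In tiles of 44 to 46% GC they had 31.2 against 36.7, a ratio of 0.851, and at 48% and over 54.6 against 65.4. Weighted by the composition of the long genes, the ratio was 0.735.

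**Figure D3:**
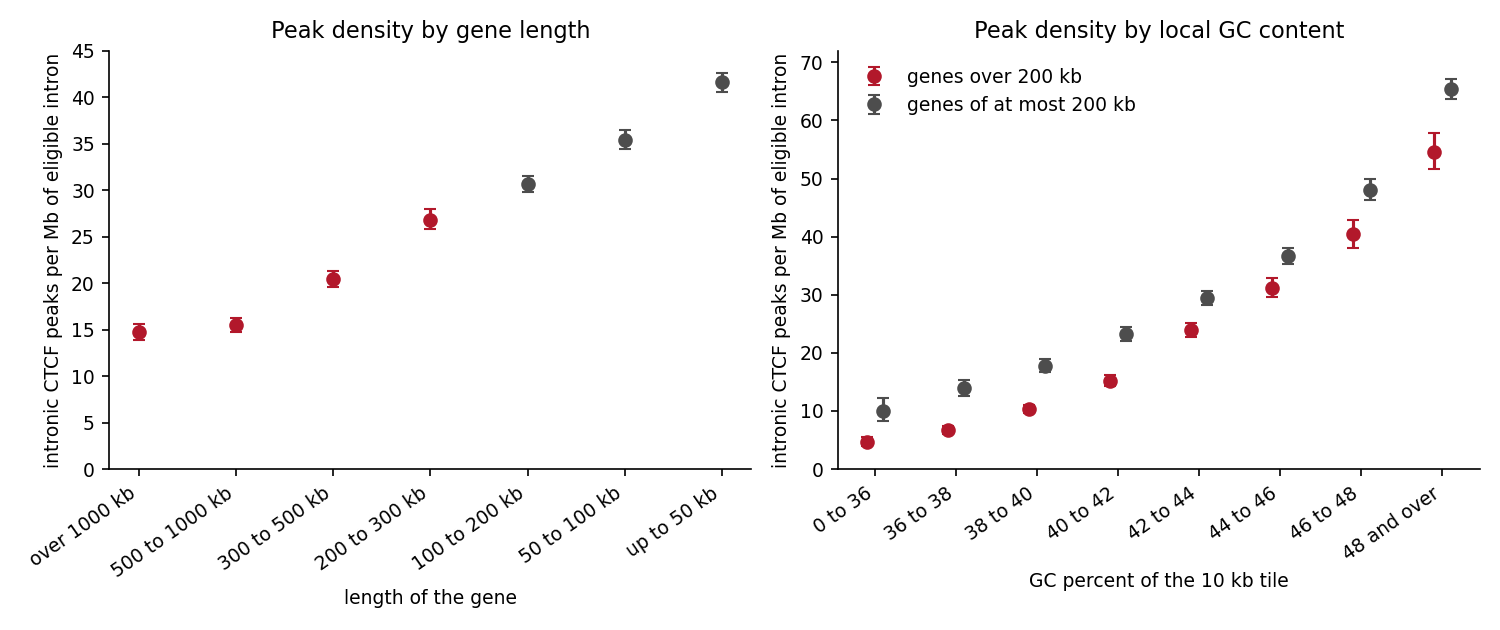
Intronic CTCF peaks per Mb of eligible intron, with 95% exact Poisson intervals, by gene length (left, genes over 200 kb in red) and by GC percent of the 10 kb tile (right, genes over 200 kb in red and shorter genes in grey). Density was lowest over 1000 kb at 14.7 and highest up to 50 kb at 41.6, and at every GC class the red point lies below the grey one. The class over 1000 kb includes the entries Gm20388 and Fgfr2.

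The difference was larger in repeats. Of the long-gene peaks, 1610 (21.2%, 95% Wilson interval 20.3 to 22.2) had their summit in soft-masked sequence, against 30.9% (30.2 to 31.6) of intronic peaks in shorter genes and 22.1% of all optimal peaks on chromosomes 1 to 19. The eligible sequence was soft-masked to a like extent, 28.1% in long genes and 29.6% in shorter ones. Counted over all eligible sequence, long genes had 4.14 soft-masked summits per Mb against 11.03 in shorter genes, a ratio of 0.376, or 0.461 when weighted by GC class. For summits outside soft-masked sequence the densities were 15.4 and 24.7, a ratio of 0.623, or 0.874 when weighted. The repeat form of the motif, found by a second matrix learned with repeats kept, matched 17.2% of long-gene peaks and 25.9% of the others. Whole matches recurred. With 1 chromosome left out of this count, the 5 commonest match sequences were all of the repeat form, each was soft-masked at every peak that carried it, and the first was AGGCCAGAAGAGGGCATCA at 70 long-gene peaks. The next, AGGCCAGAAGAGGGCACCA, was found at 35, and ACACCAGAAGAGGGCATCA at 30. Of all 4962 matches, 4108 were seen once. Repeat families are not named in the files used here, so the share from B2 elements was not measured.

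Soft-masked sites were mostly of low signal, with a median percentile of 33.5 against 51.9 for the other long-gene peaks. The highest long-gene peaks with a soft-masked match of the repeat form, chosen after their values were seen, lay in Nr6a1, a germ cell nuclear receptor gene, at percentile 98.4 (96.2 in replicate 1, 98.6 in replicate 2), and in Abr, a GTPase regulator gene, at 98.2 (98.2 and 97.6). They are printed along the motif strand, which is the forward strand in both. Both hold CCAGCAG where the commonest bases within soft-masked sequence read CCAGAAG. The next highest such peak, in the entry Gm20388 and not printed, holds CCAGAAG, so the highest peaks of this kind did not share the departure.
Nr6a1, chr2:38797276-38797294: tcagcCTACCAGCAGAGGGCAGCAtttcc
Abr, chr11:76456418-76456436: aatggCGGCCAGCAGAGGGCAGTAgctta

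A motif match lay under 4962 long-gene peaks, 65.5% (95% Wilson interval 64.4 to 66.5), against 69.6% (68.9 to 70.3) of intronic peaks in shorter genes and 63.7% of all optimal peaks. In control windows 2 kb away the share was 1.40% for long-gene peaks and 2.33% for the others. The match lay a median of 6 bp from the summit. Among soft-masked summits 84.0% had a match and among the others 60.5%, and in shorter genes 85.9% and 62.4%. The share with a match was 39.6% in the lowest 10% of the list by signal and 93.1% in the highest 10%. The median percentile of long-gene peaks was 56.8 with a match and 31.5 without. A CG pair, the substrate of DNA methylation, was present in 29.3% of the matches in long genes and 31.3% in shorter genes, most often starting at position 15 of the motif (1092 matches). The share with CG was 24.8% in the lowest 10% by signal and 44.2% in the highest 10%.

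**Figure D4:**
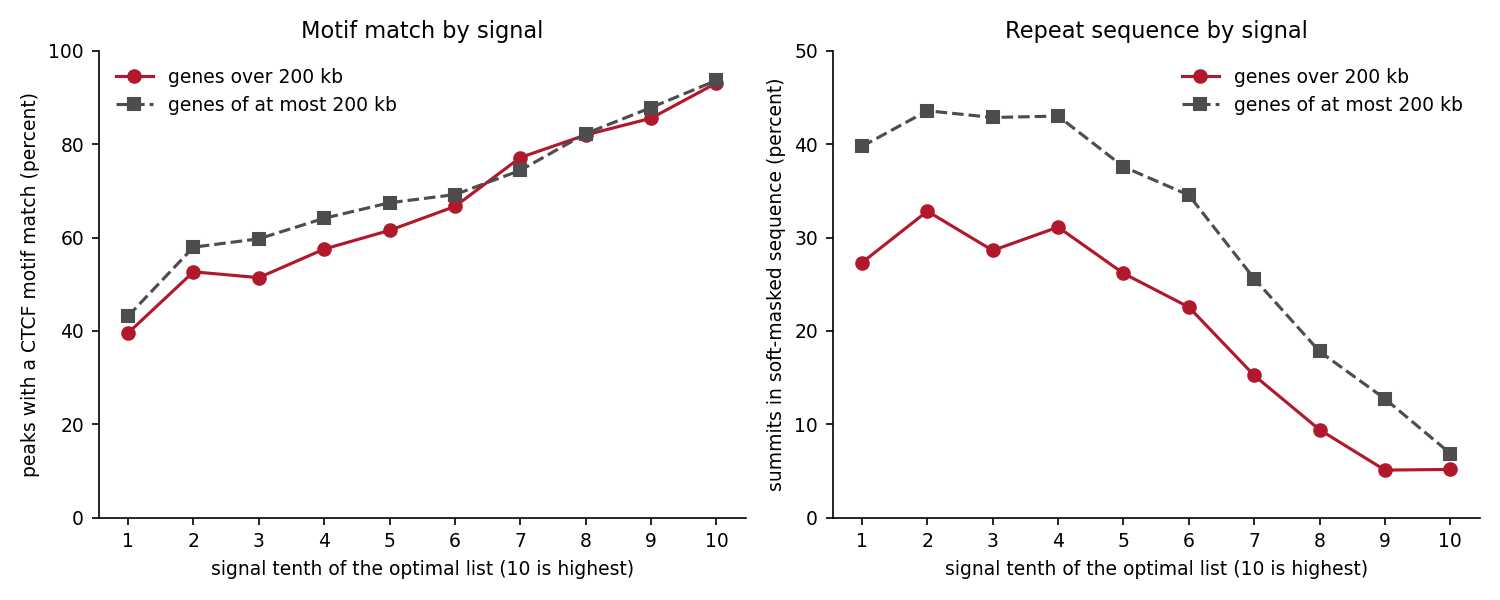
Share of peaks with a motif match (left) and share of summits in soft-masked sequence (right), in percent, in steps of 10% of the optimal list by signal, for long-gene peaks (red circles) and intronic peaks of shorter genes (grey squares). The match share of long-gene peaks was 39.6% in the lowest step and 93.1% in the highest, and their soft-masked share was highest in the second step at 32.8% and was 5.18% in the highest.

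By signal the long-gene peaks spanned the whole list. Their median percentile was 46.8 (interquartile range 24.2 to 71.2), against 48.8 for intronic peaks of shorter genes and 54.4 for peaks between genes. Ranked by replicate 1 the medians were 46.9 in long genes and 48.8 in shorter ones, and ranked by replicate 2 they were 45.3 and 48.4. Within the upper set of each library taken alone, the long-gene median minus that of shorter genes was -2.94 points in replicate 1 and -0.848 points in replicate 2. The upper 10% of the list held 7.64% of long-gene peaks and 9.16% of the others. Over all peaks with a match the medians were 56.8 in long genes and 56.9 in shorter genes. Among peaks with a match and a summit outside soft-masked sequence the median was 65.6 in long genes, 70.0 in shorter genes and 73.2 between genes, and among soft-masked summits with a match it was 35.4, 37.7 and 38.4. In the conservative list were 83.5% of long-gene peaks (6331), against 83.3% of the other intronic peaks and 84.1% of all optimal peaks. In the upper set of both libraries, meaning as many highest-signal peaks of each as the optimal list holds, were 77.2% (5852), against 77.5% and 78.5%. The upper set of replicate 1 held 91.4% and that of replicate 2 held 81.2%, against 90.3% and 83.0% of intronic peaks of shorter genes. Over the 7360 long-gene peaks with a counterpart in both libraries, Spearman's rho of the percentiles was 0.903, and 799 (10.9%) differed by more than 20 points. For intronic peaks of shorter genes rho was 0.901, and 12.2% differed by more than 20 points. The list was itself thresholded for reproducibility, so these values describe selected peaks.

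Within long genes, peaks were denser near exons and near starts. The density was 28.5 per Mb within 1 kb of an exon (95% exact Poisson interval 26.7 to 30.4), 26.2 from 1 to 5 kb, 18.8 from 5 to 20 kb, 15.9 from 20 to 50 kb and 12.7 (11.9 to 13.6) farther away. In shorter genes the first of these was 40.3 and the fourth 21.7. From the nearest TSS it was 35.1 per Mb at 1 to 5 kb and 9.85 beyond 200 kb. Introns of up to 20 kb had 27.6 per Mb and introns over 100 kb had 16.0, while first introns (18.9), second introns (17.4) and later ones (19.9) were closer together. GC content was not held fixed in these comparisons, so its part was not tested. The median long-gene peak lay 8.07 kb from an exon and 34.3 kb from a TSS, against 1.57 and 7.99 kb in shorter genes. Neighbouring peaks in a gene lay 20.4 kb apart at the median (interquartile range 6.99 to 50.9), and the largest gap was 935 kb. Outside the readthrough entries, single introns with most peaks were the second of Maml3, a Notch coactivator gene (18 peaks in 158 kb), the third of the phosphodiesterase gene Pde4d (17 in 708 kb) and the first of Mecom (17 in 500 kb). A TSS of a long non-coding RNA lay within 1 kb of 64 peaks (0.844%), against 1.04% in shorter genes.

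Along the gene, the last 10% of its length stood apart. It had 26.0 peaks per Mb (24.4 to 27.7), against 20.9 (19.5 to 22.4) in the first 10% and 17.0 to 21.7 in the 8 steps of 10% between. Its median signal percentile was 54.6, against 44.3 in the first 10% and at most 48.4 in the others.

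The motifs changed direction along the gene. Over whole genes the share of either strand was near 50%, and its side of 50% differed between the sets of peaks matched by each matrix. With the matrix learned outside repeats, 2397 of 4959 matches with an unambiguous gene strand pointed with transcription, 48.3% (95% Wilson interval 46.9 to 49.7), and in shorter genes 49.4% did. The matrix that kept repeats matched only 1302 long-gene peaks (17.2%), and the share for its matches was 52.7%, on the other side of 50%. The 2 shares therefore cover different sets of matches. Shares by position and distance below count a peak once for each long gene that holds it. A peak between genes counts once for each long gene within 100 kb. In the first 10% of the gene the share was 60.6% (56.3 to 64.8; 303 of 500), from there to 50% of its length 53.0%, from 50% up to the last 10% 45.3%, and in the last 10% 35.6% (32.0 to 39.3; 234 of 658). Near both ends, more motifs therefore pointed into the gene than out of it. The share in the first 10% minus that in the last 10% was 25.04 percentage points. This contrast was chosen after seeing the data. It was 24.7 points on odd-numbered chromosomes and 25.3 on even-numbered ones, 26.4 in genes of the forward strand and 23.0 in genes of the reverse strand. It was 26.3 for soft-masked matches and 23.7 for the others, so it was present both within and outside soft-masked sequence. By gene length it was 15.1 points in genes over 500 kb, 33.2 from 300 to 500 kb and 29.3 from 200 to 300 kb, and in shorter genes of 50 to 200 kb it was 14.4. In the upper sets of the libraries taken alone it was 24.2 points in replicate 1 and 25.04 in replicate 2.

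By distance, the share with transcription was 67.9% (59.5 to 75.3; 89 of 131) within 10 kb of the 5′ end, 62.5% from 10 to 25 kb, 50.7% (44.9 to 56.5) from 25 to 50 kb and 56.7% (52.9 to 60.4) from 50 to 100 kb, so it did not fall steadily inwards. It was 49.4% (47.3 to 51.4; 1115 of 2258) where both ends were over 100 kb away, and at the 3′ end it was 46.03% (42.3 to 49.8) from 50 to 100 kb, 33.8% from 25 to 50 kb, 34.6% from 10 to 25 kb and 34.1% (26.6 to 42.5; 45 of 132) within 10 kb. The flanks differed from each other at 1 to 10 kb, where their intervals did not overlap. At 10 to 25, 25 to 50 and 50 to 100 kb the intervals of the flanks overlapped. Upstream of the 5′ end the share of matches between genes that pointed with transcription was 55.9 to 64.7%. Downstream of the 3′ end the share was 45.99 to 56.8%, and the intervals at 1 to 10, 10 to 25 and 50 to 100 kb included 50%. Across the 5′ end the share was 67.9% inside the gene and 64.7% (57.9 to 71.0) outside, both within 10 kb. Across the 3′ end it was 34.1% inside and 45.99% (37.9 to 54.3) outside within 10 kb, intervals that overlap, and 34.6% (29.4 to 40.1) inside against 55.3% (48.2 to 62.2) outside at 10 to 25 kb, intervals that do not.

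**Figure D5:**
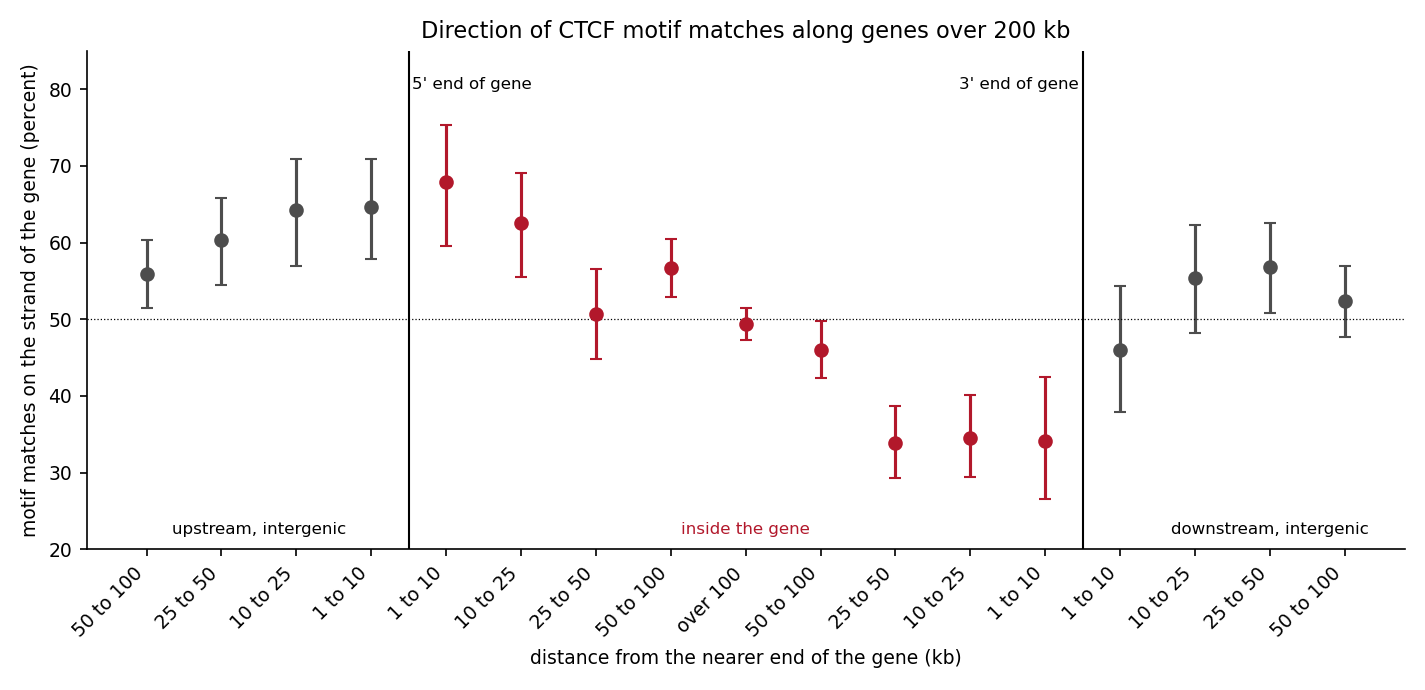
Percent of motif matches on the strand of the gene, with 95% Wilson intervals, by distance (kb) from the nearer end of genes over 200 kb; red points are long-gene peaks and grey points are peaks between genes on either side. The share was 67.9% within 10 kb of the 5′ end, 49.4% deep inside the gene and 34.1% within 10 kb of the 3′ end.

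In 170 genes a match lay both in the first and in the last 10%, and the outermost of each were compared. They pointed at each other, both into the gene, in 70 genes (41.2%, 95% Wilson interval 34.1 to 48.7), and away from each other in 26 (15.3%, 10.7 to 21.5). They pointed along transcription in 32 and against it in 42. The product of the shares at each end, with no pairing within genes, is 39.5% pointing at each other and 13.6% pointing away, both inside these intervals. The 3 longest genes with a pair pointing inwards, by a rule set after seeing the data, were Csmd1 (1643 kb), a gene of complement control and synapses, Pcdh15 (1550 kb), a cadherin of hair cells, and Rbfox1 (1526 kb), a splicing factor gene. Their matches are printed on the forward strand of the genome, 5′ match before 3′ match, so that the reversal can be read. In Csmd1, which lies on the reverse strand, the 5′ match is on the reverse strand and the 3′ match on the forward strand, and in the other genes it is the other way round.
Csmd1 5′, chr8:17491894-17491912: ggattTGCTGCCCTCTTCTGGACTcacat
Csmd1 3′, chr8:16006605-16006623: tcgcaTTGACTCTAGAGGGCGACAcaact
Pcdh15 5′, chr10:73103878-73103896: gagaaCTGCCACATGGTGGCGCTAttgtg
Pcdh15 3′, chr10:74622034-74622052: gactcTAGTGACATCTAGTGTCCTgaaga
Rbfox1 5′, chr16:5898530-5898548: agggaGTGCCAGCAGGTGTCAGTAtggcc
Rbfox1 3′, chr16:7276092-7276110: gcgtcTACTGCCACCTACAGGCATagtat
The 5′ match of Pcdh15 lay 4.56 kb from the start of the gene at percentile 52.2 (53.4 in replicate 1, 46.04 in replicate 2), and its 3′ match 27.7 kb from the end at 60.9 (62.4 and 58.2). In Csmd1 the peaks stood at 25.6 (20.3 and 27.5) and 49.4 (51.7 and 39.4), and in Rbfox1 at 60.2 (60.4 and 51.6) and 46.9 (49.8 and 29.2). None of these peaks was among the highest of the list. Over all their matches, single genes could lean to a strand: Gse1 had 18 along transcription and 5 against, and Tead1 had 1 along and 7 against.

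Directions were also compared between neighbouring matches of a gene. Of 4126 neighbouring pairs, 54.0% were in tandem, 23.5% pointed at each other and 22.5% pointed away. At under 10 kb apart 19.4% pointed at each other and 26.7% away, whereas at over 100 kb 29.1% (95% Wilson interval 25.9 to 32.6) pointed at each other and 17.8% (15.1 to 20.8) away. Over neighbouring matches of all optimal peaks the same shares were 19.9% and 26.1% under 10 kb, and 31.4% and 17.4% from 100 to 500 kb, so pairs pointing at each other took a larger share at longer distance there too.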

How the data were processed

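The authors deposited narrowPeak lists on the mm10 assembly, per the notes deposited with them: 1 for each library, 1 for both libraries pooled (300000 peaks each) and 2 thresholded for reproducibility, the optimal (65482) and the conservative list (59444). Each used 1 further alignment file whose role is not stated. The aligner, the caller and the thresholds are not given in the sources at hand. The deposited signal values are the authors' own and served only as percentiles within the optimal list. The deposited −log10 q-values ranked nothing, being tied at their highest value. The deposited summit offset gave each summit. The lists hold no counts, so depth is unknown, and intervals cover counting error only.

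Genes were those of GENCODE M21 (20807 protein-coding on chromosomes 1 to 19, 90310 distinct TSSs), and sequence came from the RefSeq GRCm38.p6 genome, whose soft-masking marked repeats. The motif matrix of 19 bp was learned from optimal peaks outside the long genes with soft-masked bases left out. It started from the 8-base word most over-represented against windows 2 kb away, and was scanned on both strands. Motif direction is relative to the gene. Eligible intron is sequence without N that passes the location rule. Spread between libraries came from each library's upper set, cut to the length of the optimal list. Overlap meant at least 1 bp. Matrix and density scripts were tested on simulated data. Tools were Python 3.11.15, numpy 2.4.6, pandas 2.3.3, scipy 1.17.1 and matplotlib 3.10.9. No test over regions was made, since peaks of 1 group are not replicates. The members, the gene lists and the naming rule were chosen with earlier results of these data known: the 10 highest and 3 lowest peaks by signal, the 10 genes with most peaks, the 5 densest with at least 5, the 5 longest with and without a peak, 3 genes on each side of 200 kb, and the lists. Alternatives were other lists, a length limit of 100 or 300 kb, a distance of 2.5 kb, other gene spans, stricter or narrower motif scans, and nearby peaks within 500 bp left out. Some values and sequences are not reported here.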

Additional observations from a re-analysis of the deposited data

How the results depend on the processing

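Each value was recomputed under alternatives. Of 99, 70 moved by less than the SD between libraries (counts by less than 1.5 times) and 29 moved by more. That SD came from the 2 single-library values, which are themselves among the alternatives. The tally therefore depends on how far the libraries differed and does not measure robustness. The number of long-gene peaks was 3531 in the upper 50% of the list by signal and 12714 with a limit of 100 kb; it was 7210 to 7723 with either library left out. The share of long genes with a peak (96.1%) was 89.6% in the upper 50% by signal, 96.9% over 300 kb, 93.7% over 100 kb, 95.4% beyond 2.5 kb from ends, 95.6% with spans of principal transcripts, and 95.6 to 96.1% with a library left out. The density ratio (0.546) was 0.504 at 300 kb, 0.592 at 100 kb and 0.735 within GC classes. The difference in motif share between long and shorter genes (-4.17 points) was -1.09 in the upper 50% by signal, -5.52 at 100 kb, -3.37 at a score passed by 1 in 100000 control positions, -8.73 with the matrix that kept repeats and -3.54 within 50 bp. The share of matches along transcription (48.3%) was 49.1% at 300 kb, 47.5% at 100 kb, 52.7% with the matrix that kept repeats, which lies on the other side of 50%, 47.8% with principal transcripts, and 48.6 to 49.1% with a library left out. The matrix that kept repeats matched 17.2% of long-gene peaks, against 65.5% with the matrix learned outside repeats. The difference in median signal percentile (-2.07 points) was -2.94 to -0.848 with a library left out. The soft-masked difference (-9.65 points) was -7.83 in the upper 50% by signal. The difference in direction between the first and last 10% of the gene (25.04 points) was 28.0 with principal transcripts, 26.9 in the upper 50% by signal, 23.0 at 300 kb, 23.9 at 100 kb, 24.2 beyond 2.5 kb, 25.7 with spans of coding transcripts, and 24.2 to 25.04 with a library left out. Alternatives that used principal transcripts, and all for the direction contrast, were chosen after seeing the data. Counts moved with a limit or a list because fewer or more peaks enter; for the shares, differences and ratios the cause was not tested. No paired analysis was possible because the 2 libraries form 1 group. Depth is unknown, so it is not known how many weaker sites the lists miss.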
